A study of Homo sapiens with 9 samples.

Results

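The 10 genes described here are transcripts commonly read as the output and the feedback of the receptor tyrosine kinase FLT3. They are the phosphatase gene DUSP6, the Sprouty and Spred genes SPRY2, SPRY4, SPRED1 and SPRED2, the kinase genes PIM1 and PIM2, the SH2-domain genes CISH and SOCS2, and MYC. The list was set by gene symbol and pathway role, with earlier results of these data known. All 10 were found once among the 30017 genes of the count table, and all 10 passed the filter on low counts that left 12712 genes for testing.

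MOLM13 is a human acute myeloid leukemia cell line that carries an internal tandem duplication in FLT3 (FLT3-ITD), which keeps the receptor active without its ligand. Active FLT3 signals through RAS and the kinases RAF, MEK and ERK, through the transcription factor STAT5, and through PI3K and AKT. ERK induces its own brakes, among them DUSP6, Sprouty and Spred, while STAT5 induces CISH, SOCS2 and the PIM kinases. MYC, a transcription factor that drives growth and ribosome production, receives input from all of these branches.

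RNA sequencing was done on 9 libraries of MOLM13 cells in 3 groups of 3, lettered A, B and D. Cells received a pLKO-GFP lentivirus, packaged in 293T cells, that carried the hairpin sh-Control, Sh-DDX41_1 or Sh-DDX41_2 (here shDDX41 #1 and shDDX41 #2), and were sorted on day 4. DDX41 encodes a DEAD-box helicase mutated in myeloid neoplasms. All groups share FLT3-ITD, the vector and the sort, and the labels do not say whether the letters stand for separate cultures. The methods describe quantified assays in general as biological replicates without naming the sequencing, so p-values measure the spread between these libraries, part of which may be technical.

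Libraries held 16385238 to 20510032 counts. Levels are given as CPM, the counts of a gene scaled to a common library total, with TMM factors of 0.963 to 1.02. The targeted gene was lower in every knockdown library, at 113 to 117 CPM with sh-Control, 9.95 to 12.9 CPM with shDDX41 #1 and 38.9 to 42.5 CPM with shDDX41 #2. The fitted log2 fold changes of DDX41 were −3.29 (edgeR quasi-likelihood test, Benjamini-Hochberg adjusted p = 4.1e-12) and −1.51 (adjusted p = 7.0e-09), and the hairpins differed by −1.79 (adjusted p = 2.2e-09), with the deeper knockdown in shDDX41 #1. All 12 myeloid markers passed the filter on low counts. ANPEP was the lowest of them, at group means of 0.521 to 0.937 CPM, within the range of the summed T cell markers. All 5 erythroid markers, globins included, had 0 counts in the 9 libraries. The summed T cell markers stayed between 0.239 and 2.18 CPM, the B cell markers between 0.421 and 1.26 CPM, and the epithelial and packaging cell markers between 14.7 and 19.4 CPM, mostly from KRT18.

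A gene was called when its adjusted p over all 12712 genes fell below 0.05. With shDDX41 #1, 5 of the 10 genes were called against sh-Control. SPRY4, PIM2, CISH and MYC rose and DUSP6 fell. Of all genes, 47.8% were called in this comparison, 23.7% higher and 24.1% lower, so the share among the 10 was near that background. With shDDX41 #2, PIM2 rose, while PIM1, CISH, SOCS2 and MYC fell, which makes 5 of 10 against a background of 25.0%, with 11.6% of all genes higher and 13.4% lower. That count of 5 fell to 3 on leaving out any one shDDX41 #2 library or either of the sh-Control libraries B and D, and the calls over all genes fell from 3174 to 2054 without shDDX41 #2 B. With shDDX41 #1 the count was 3 without shDDX41 #1 B. Between the hairpins, 6 of 10 differed, 5 higher with shDDX41 #1 and 1 lower, against 48.8% of all genes, 24.6% higher and 24.2% lower. The median log2 fold change of the 10 was −0.03, −0.18 and 0.17 in these comparisons, beside 0.01, −0.01 and 0.01 over all genes.

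Between shDDX41 #1 and sh-Control, 6 of the 10 genes had separate CPM ranges, as did 53.1% of all genes. The same held for 6 of 10 with shDDX41 #2, against 43.8% of all genes, and for 7 of 10 between the hairpins, against 57.7%. An exact permutation test over 3 against 3 libraries cannot go below p = 0.1, so calls rest on the edgeR fit. In bulk RNA, fewer cells of one kind and less RNA per cell cannot be told apart.

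**Figure D1:**
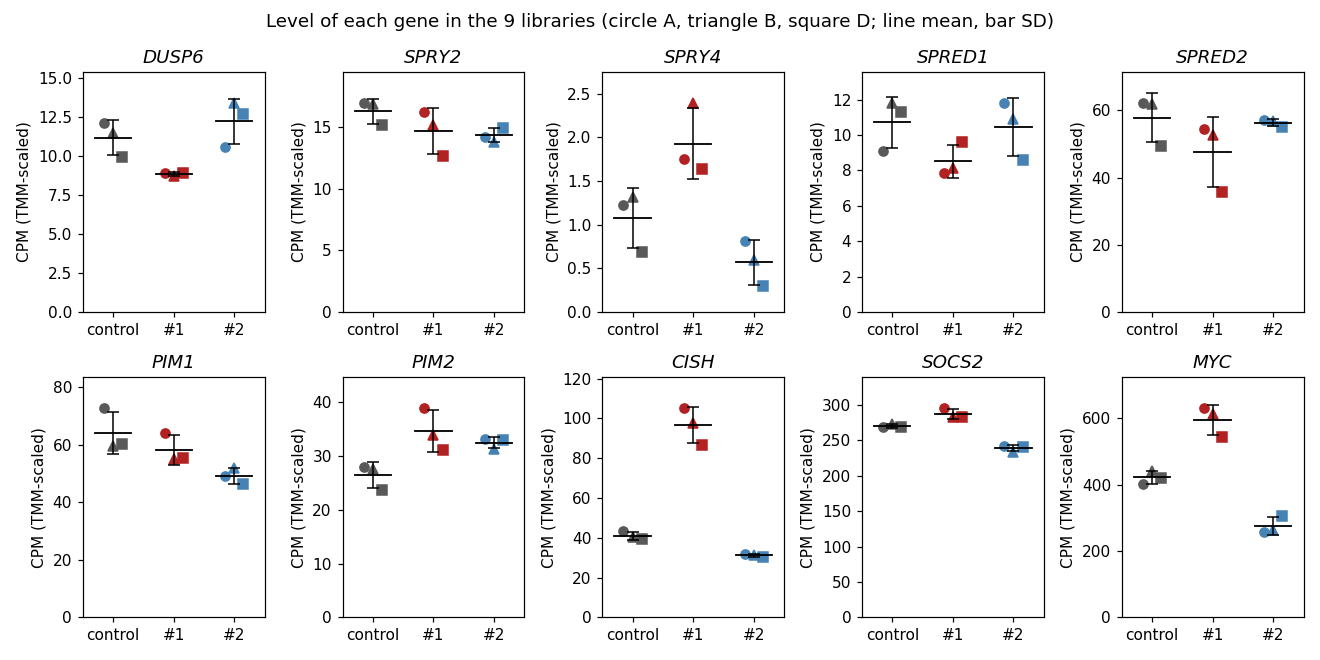
TMM-scaled CPM (vertical axes, from 0) of each gene in the 3 libraries of sh-Control (grey), shDDX41 #1 (red) and shDDX41 #2 (blue), with the mean as a line and the SD as a bar. CISH, MYC and, over a narrower range, SOCS2 separate all 3 groups in 1 order, with shDDX41 #1 above sh-Control and shDDX41 #2 below it. SPRED1 and SPRED2 overlap between sh-Control and both hairpins.

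Levels can be set side by side between genes only per length of exon. Per kb of merged GENCODE exons, MYC was the most abundant of the 10 in sh-Control, at 140 CPM per kb. SOCS2 followed at 39.9, PIM1 at 21.5, SPRED2 at 11.2, PIM2 at 9.56 and CISH at 8.0 CPM per kb. SPRY2 lay at 5.37, DUSP6 at 2.42, SPRED1 at 1.3 and SPRY4 at 0.163 CPM per kb. The STAT5 targets, the PIM genes and MYC thus stood above most of the ERK feedback genes, SPRED2 excepted, and SPRY4 was the lowest. With shDDX41 #1, CISH reached 18.9 CPM per kb and on this measure passed both SPRED2 (9.25) and PIM2 (12.5), whereas with shDDX41 #2 it lay at 6.12 CPM per kb. These ranks depend on the length used. The merged exons of CISH cover 5112 bases of a gene of 5286, and those of DUSP6 4632 of 5267. In plain CPM, CISH (40.9) already stood above PIM2 (26.4) in sh-Control.

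The receptor itself was measured first. FLT3 stood at 399, 381 and 404 CPM in the sh-Control libraries, 455, 486 and 423 CPM with shDDX41 #1, and 362, 396 and 392 CPM with shDDX41 #2. It was higher with shDDX41 #1 by 0.20 on the log2 scale (SE 0.067, edgeR adjusted p = 0.0204), but not past the threshold when sh-Control B (0.0748) or shDDX41 #1 B (0.0878) was left out, with adjusted p of 0.00134 to 0.0878 over 18 alternatives. With shDDX41 #2 the difference was −0.04 (edgeR adjusted p = 0.704). Between the hairpins FLT3 was 0.24 higher with shDDX41 #1 (edgeR adjusted p = 0.00727), a call that was lost without shDDX41 #2 A (0.20, 0.0519).

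Of the ERK feedback genes, DUSP6 encodes a cytoplasmic phosphatase that removes the activating phosphates from ERK. It lies on chromosome 12 at 89347235 to 89352501 (GRCh38.p14). DUSP6 measured 12.1, 11.5 and 9.95 CPM in sh-Control, 8.92, 8.74 and 8.92 CPM with shDDX41 #1, and 10.6, 13.4 and 12.7 CPM with shDDX41 #2. All shDDX41 #1 libraries lay below all others, and the other groups overlapped. The log2 fold change was −0.34 with shDDX41 #1 (95% interval −0.6 to −0.07, edgeR adjusted p = 0.0370) and 0.13 with shDDX41 #2 (−0.13 to 0.39, adjusted p = 0.462). The hairpins differed by −0.47 (SE 0.124, edgeR adjusted p = 0.00598). The call against sh-Control was lost without sh-Control A or B or any shDDX41 #1 library (adjusted p between 0.0601 and 0.113) and with upper quartile scaling (0.0978), with a range of 0.0205 to 0.113 over 18 alternatives, but the difference between hairpins was called without any one library.

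Sprouty proteins bind adaptors such as GRB2 and dampen RAS activation downstream of receptor kinases. SPRY2 (chromosome 13, 80335976 to 80341126) measured 16.9, 16.8 and 15.1 CPM in sh-Control, 16.2, 15.1 and 12.6 CPM with shDDX41 #1, and 14.2, 13.8 and 14.9 CPM with shDDX41 #2. Its groups lay close together and no pair was called. The log2 differences from sh-Control were −0.15 (95% interval −0.39 to 0.08) and −0.19 (−0.42 to 0.05).

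SPRY4 (chromosome 5, 142310430 to 142325021) was the least abundant of the 10, with 5 to 40 counts per library. It measured 1.22, 1.32 and 0.685 CPM in sh-Control, 1.75, 2.39 and 1.64 CPM with shDDX41 #1, and 0.81, 0.595 and 0.303 CPM with shDDX41 #2. Every shDDX41 #1 library was above every other library, while sh-Control and shDDX41 #2 overlapped. SPRY4 was 0.85 higher on the log2 scale with shDDX41 #1 (SE 0.322, edgeR adjusted p = 0.0409). The value with shDDX41 #2 was −0.88 (95% interval −1.7 to −0.06, adjusted p = 0.109), and the hairpins differed by 1.73 (SE 0.356, edgeR adjusted p = 9.8e-04). The call against sh-Control was lost with DESeq2 (adjusted p = 0.0627) and, by edgeR, without sh-Control A (0.0596), sh-Control D (0.168), shDDX41 #1 A (0.0607), shDDX41 #1 B (0.161) or shDDX41 #2 B (0.0558), with 0.0241 to 0.168 over 17 alternatives. SPRY4 is overlapped by the antisense gene SPRY4-AS1, not analysed here, and how strand was treated in counting is not given in the sources used here.

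Spred proteins recruit neurofibromin to the membrane and so oppose RAS. SPRED1 (chromosome 15, 38252836 to 38357249) measured 9.1, 11.8 and 11.3 CPM in sh-Control, 7.84, 8.14 and 9.59 CPM with shDDX41 #1, and 11.8, 10.9 and 8.61 CPM with shDDX41 #2. SPRED2 (chromosome 2, 65307175 to 65432599) measured 62.1, 61.9 and 49.4 CPM, then 54.5, 52.6 and 35.8 CPM, then 57, 56.8 and 55.1 CPM in the same order. The D libraries of sh-Control and shDDX41 #1 were the low ones for SPRED2. Against sh-Control, shDDX41 #1 gave −0.33 for SPRED1 (95% interval −0.65 to −0.02, edgeR adjusted p = 0.0741) and −0.28 for SPRED2 (−0.55 to −0.01, adjusted p = 0.0834). With shDDX41 #2 the values were −0.03 (−0.34 to 0.27) and −0.04 (−0.3 to 0.23), and neither gene was called in any comparison. Under alternatives both crossed the threshold with shDDX41 #1. SPRED1 did so without sh-Control A (−0.44, edgeR adjusted p = 0.0308) or without shDDX41 #1 D (−0.41, 0.0346). Between the hairpins, SPRED1 was called without shDDX41 #1 D (−0.39, 0.0452) or shDDX41 #2 D (−0.42, 0.0390), and SPRED2 without a filter on low counts (−0.25, 0.0293). Against sh-Control, SPRED2 was called without a filter on low counts (adjusted p = 0.0134), without sh-Control D (−0.38, 0.0246) and without shDDX41 #1 A (−0.38, 0.0381). Over 18 alternatives the adjusted p between the hairpins ran from 0.0390 to 0.341 for SPRED1 and from 0.0228 to 0.535 for SPRED2. Against sh-Control it ran from 0.0308 to 0.220 for SPRED1 and from 0.0123 to 0.369 for SPRED2.

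Of the STAT5 targets, CISH encodes an SH2-domain protein that binds activated cytokine receptors and blocks further STAT5 signaling. It lies on chromosome 3 at 50606489 to 50611774 on the minus strand. STAT5 is known for binding the palindrome TTCNNNGAA, and the 250 bases before the CISH start hold 4 matches to it, the first ending 233 bases and the last 104 bases before the start. That sequence (RefSeq, GRCh38.p14, chr3:50611775-50612024, minus strand, 68.8% G and C) is shown because no other gene of the 10 with a window has a match, and the capitals mark the palindromes.
CISH: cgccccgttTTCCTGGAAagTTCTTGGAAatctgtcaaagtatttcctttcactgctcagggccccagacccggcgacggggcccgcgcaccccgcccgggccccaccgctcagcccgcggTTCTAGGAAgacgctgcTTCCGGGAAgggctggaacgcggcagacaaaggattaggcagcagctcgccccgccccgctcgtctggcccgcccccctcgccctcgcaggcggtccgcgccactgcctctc

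The matches read TTCCTGGAA, TTCTTGGAA, TTCTAGGAA and TTCCGGGAA from the far end to the start. The pattern TTCNNNGAA reads the same on both strands, though the middle bases of each match do not. Among 35116 windows of this length in the RefSeq table, 6.57% hold at least 1 match and 0.0142%, or 5 windows, hold at least 4. Windows were found for 8 of the 10 genes, and SOCS2 and MYC had none. None of the 8 holds the MYC E-box CACGTG (6.34% of all windows), the ETS motif CCGGAAGT (3.42%) or the cyclic AMP element TGACGTCA (1.65%), searched on both strands. Such matches describe letters, not binding.

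CISH measured 43.4, 40.2 and 39.2 CPM in sh-Control, 105, 97.9 and 86.8 CPM with shDDX41 #1, and 31.8, 31.5 and 30.5 CPM with shDDX41 #2. The 3 groups did not overlap, and the gap to shDDX41 #1 was the wider one. CISH rose 2.36-fold with shDDX41 #1 (log2 1.24, SE 0.0767, 95% interval 1.07 to 1.4, edgeR adjusted p = 1.4e-08) and fell to 0.765 of its control level with shDDX41 #2 (log2 −0.39, SE 0.0798, adjusted p = 0.00270). The level with shDDX41 #1 was 3.08 times that with shDDX41 #2 (log2 1.62, edgeR adjusted p = 1.6e-09). These 3 calls were kept in every alternative run. CISH shares 218 exon bases with MAPKAPK3 on the opposite strand (GENCODE v29), and reads there cannot be assigned if strand was ignored. MAPKAPK3, itself an ERK and p38 pathway kinase gene, went the same way, with log2 fold changes of 0.33 (edgeR adjusted p = 0.00259) and −0.79 (adjusted p = 6.6e-06), from 130 ± 11.6 CPM in sh-Control to 164 ± 14.6 and 75.1 ± 0.765 CPM (SD, n = 3). Its part in the CISH values was not tested.

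SOCS2 (chromosome 12, 93569969 to 93626236), the second SH2-domain feedback gene, is known for turning over growth hormone and cytokine receptors. It measured 269, 273 and 269 CPM in sh-Control, 295, 283 and 283 CPM with shDDX41 #1, and 242, 234 and 241 CPM with shDDX41 #2. The groups again did not overlap and kept the order seen for CISH, but over a much narrower range. The log2 fold change was 0.08 with shDDX41 #1 (95% interval −0.03 to 0.2, edgeR adjusted p = 0.227) and −0.18 with shDDX41 #2 (SE 0.056, adjusted p = 0.0300), and the hairpins differed by 0.26 (adjusted p = 0.00126). The call with shDDX41 #2 was lost with upper quartile scaling (adjusted p = 0.0736), with no filter on low counts (0.0918), and without sh-Control B or D or any shDDX41 #2 library (0.0606 to 0.115), with 0.0126 to 0.115 over 18 alternatives. Upper quartile scaling brought a call with shDDX41 #1 (0.16, adjusted p = 0.0275). SOCS2 shares 277 exon bases with SOCS2-AS1 on the opposite strand, which had 77 to 118 counts per library and was not called in any comparison.

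PIM kinases are constitutively active serine/threonine kinases that sustain survival and translation in FLT3-ITD leukemia. PIM1 (chromosome 6, 37170152 to 37175428) measured 72.6, 59.7 and 60.2 CPM in sh-Control, 64.1, 55 and 55.3 CPM with shDDX41 #1, and 49.2, 51.8 and 46.3 CPM with shDDX41 #2. The shDDX41 #2 libraries were below all others, while sh-Control and shDDX41 #1 overlapped. PIM1 fell by 0.39 on the log2 scale with shDDX41 #2 (SE 0.0884, edgeR adjusted p = 0.00546), and its value with shDDX41 #1 was −0.14 (95% interval −0.33 to 0.05, adjusted p = 0.197). The hairpins differed by 0.24 (edgeR adjusted p = 0.0346), a call that was lost without shDDX41 #1 A (0.16, 0.183), shDDX41 #2 A (0.24, 0.0843) or shDDX41 #2 D (0.20, 0.134), with adjusted p of 0.0131 to 0.183 over 18 alternatives.

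PIM2 (chromosome X, 48913182 to 48919024) was the one gene of the 10 called in the same direction with both hairpins. It measured 28, 27.6 and 23.7 CPM in sh-Control, 38.8, 33.9 and 31 CPM with shDDX41 #1, and 33.1, 31.3 and 33 CPM with shDDX41 #2. Every knockdown library was above every sh-Control library. The log2 fold changes were 0.39 (SE 0.0941, edgeR adjusted p = 0.00332) and 0.30 (SE 0.0938, adjusted p = 0.0303), and the hairpins differed by 0.09 (95% interval −0.11 to 0.29). The call with shDDX41 #2 was lost when counts were scaled by library size only (adjusted p = 0.0623) and without sh-Control B or D or any shDDX41 #2 library (0.0524 to 0.133), with 0.00819 to 0.133 over 18 alternatives. Both comparisons use the same sh-Control libraries. PIM3, the third PIM gene, went another way, at 58.7 ± 5.17 CPM in sh-Control, 66.3 ± 5.19 with shDDX41 #1 and 45.3 ± 4.02 with shDDX41 #2 (SD, n = 3), with log2 fold changes of 0.18 (edgeR adjusted p = 0.103) and −0.37 (adjusted p = 0.00594).

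MYC measured 403, 440 and 421 CPM in sh-Control, 629, 612 and 542 CPM with shDDX41 #1, and 258, 263 and 306 CPM with shDDX41 #2. The groups did not overlap, and sh-Control lay between the hairpins. MYC rose 1.41-fold with shDDX41 #1 (log2 0.50, SE 0.0781, edgeR adjusted p = 1.1e-04) and fell to 0.654 of control with shDDX41 #2 (log2 −0.61, SE 0.0786, adjusted p = 6.2e-05). Between the hairpins it differed 2.15-fold (log2 1.11, SE 0.0791, edgeR adjusted p = 4.8e-08). Each of these calls was kept in every alternative run.

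**Figure D2:**
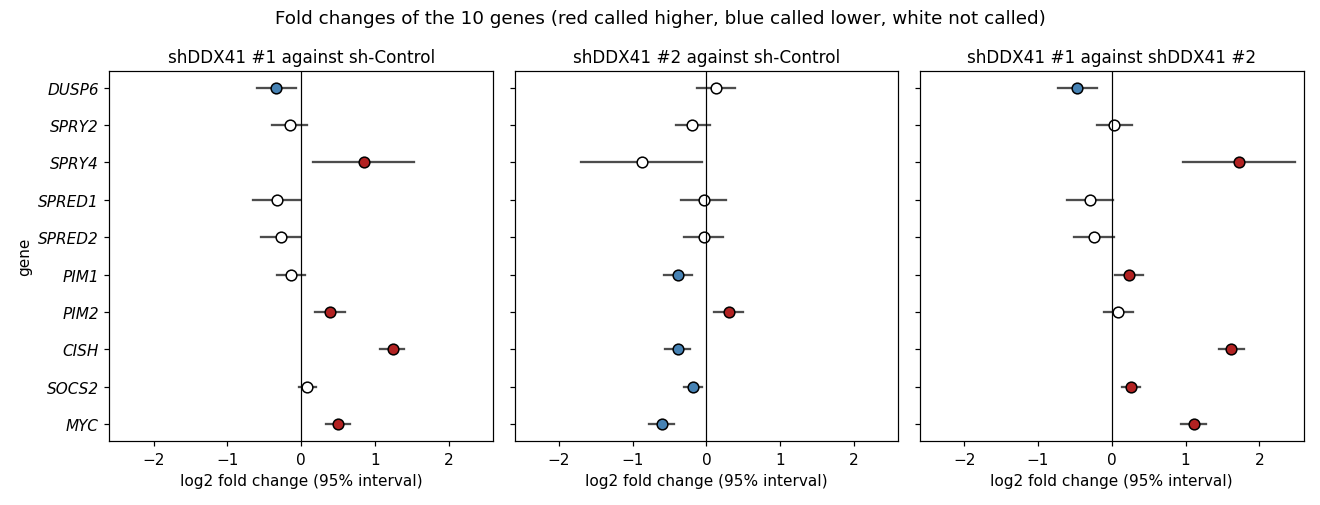
Log2 fold change (horizontal axes) with its 95% interval for each gene in the 3 comparisons, red where called higher, blue where called lower and white where not called. CISH and MYC lie right of 0 with shDDX41 #1 (1.24 and 0.50) and left of it with shDDX41 #2 (−0.39 and −0.61), and PIM2 lies right of 0 in both.

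Set in order, the groups fell into few patterns. SPRY4, CISH, SOCS2 and MYC were highest with shDDX41 #1 and lowest with shDDX41 #2, with both steps called for CISH and MYC, the upper step only for SPRY4 and the lower step only for SOCS2. PIM1 was highest in sh-Control, then shDDX41 #1, then shDDX41 #2, with the lower step called. PIM2 was lowest in sh-Control and did not differ between hairpins beyond its spread. DUSP6 was lowest with shDDX41 #1, and its levels in sh-Control and shDDX41 #2 were not separated. SPRY2, SPRED1 and SPRED2 had no step called. The summed myeloid markers were at 2589 to 2638 CPM in sh-Control, 2700 to 2753 with shDDX41 #1 and 3542 to 3608 with shDDX41 #2, and most of the difference with shDDX41 #2 was 1 gene. The lysozyme gene LYZ, chosen after its values were seen, measured 931 CPM in sh-Control and 1818 CPM with shDDX41 #2, 0.96 higher on the log2 scale (edgeR adjusted p = 1.6e-07). Of the 12 markers, 4 were called higher with shDDX41 #2, 0 lower and 8 were not called, with a median of 0.08. Of all genes, 11.6% were higher and 13.4% lower. Besides LYZ, the markers called higher were MPO (0.59, edgeR adjusted p = 2.8e-05), ITGAM (0.52, 0.00175) and PTPRC (0.18, 0.0385). The part of these markers in the lower PIM1, CISH, SOCS2 and MYC of shDDX41 #2 was not tested.

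The genes around the 10 were read from 6 pathway lists, whose counts are given as descriptions beside the shares of all genes called. In the chain from FLT3 to ERK, 25 of 25 genes were tested, and with shDDX41 #1, 6 rose and 9 fell (median −0.11), where 23.7% and 24.1% of all genes did so. PTPN11, the phosphatase SHP2 that RAS activation needs, fell by 0.79 on the log2 scale (edgeR adjusted p = 1.2e-07) and NRAS fell by 0.63 (adjusted p = 1.0e-06). With shDDX41 #2, 4 rose and 4 fell (median −0.01), beside 11.6% and 13.4% of all genes. Those called held MAP2K2, which encodes the ERK kinase MEK2 (−0.89, edgeR adjusted p = 5.3e-07), and the adaptor gene GAB2 (0.37, adjusted p = 0.00258).

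A further 22 genes were listed as other ERK output and feedback genes, but whether ERK controls each of them was not tested. Of these 22 genes, 17 passed the filter and were compared. With shDDX41 #1, 6 rose and 2 fell (median 0.21), and with shDDX41 #2, 2 rose and 6 fell (median −0.28), while between the hairpins 10 were higher and 3 lower with shDDX41 #1 (median 0.53). The shares of all genes, higher and lower, were 23.7% and 24.1%, then 11.6% and 13.4%, then 24.6% and 24.2%. The count with shDDX41 #2 was 5 in place of 8 without any one shDDX41 #2 library. The ETS factor gene ETV4 fell by 1.1 and the nuclear ERK phosphatase gene DUSP2 rose by 0.88 with shDDX41 #1 (edgeR adjusted p = 6.4e-07 and 2.5e-05). With shDDX41 #2, FOSL1, a FOS family gene, and the phosphatase gene DUSP8 each gave −0.83 (edgeR adjusted p = 3.6e-04 and 0.00513). SPRY1, chosen after its values were seen as a paralog of SPRY2 and SPRY4, measured 3.77 CPM in sh-Control, 6.38 with shDDX41 #1 and 2.16 with shDDX41 #2 (means, n = 3). Its log2 fold changes were 0.76 (edgeR adjusted p = 0.00452) and −0.82 (adjusted p = 0.0126). Within the Sprouty family, against sh-Control, SPRY1 was thus called in opposite directions and SPRY4 with shDDX41 #1 only. SPRY2 and SPRY3 were not called, and SPRY3 gave −0.32 and 0.38. The other pathway lists went different ways between the hairpins, beside 24.6% of all genes higher and 24.2% lower. With shDDX41 #1, 4 genes were higher and 10 lower in the FLT3 to ERK chain, and 4 and 9 in the PI3K and AKT chain. The JAK-STAT list had 9 higher and 7 lower, the MYC partners 7 and 1, and the MYC targets 12 and 6.

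In the list of JAK-STAT components and other STAT5 targets, 26 of 27 genes were tested. With shDDX41 #1, 9 rose and 6 fell (median 0.08), and with shDDX41 #2, 3 rose and 6 fell (median 0.03), beside 47.8% and 25.0% of all genes called in either direction. BCL6, a transcriptional repressor that STAT5 is known to repress, rose with both hairpins, by 1.00 (edgeR adjusted p = 3.2e-06) and 0.93 (adjusted p = 2.8e-05). CISH was called in opposite directions, and the part of STAT5 in the values of either gene was not tested. JAK1 fell by 0.59 with shDDX41 #1 (adjusted p = 1.1e-05), and the cytokine gene OSM, a STAT5 target, fell by 1.66 with shDDX41 #2 (adjusted p = 7.1e-06). The STAT5 genes themselves were chosen after their values were seen. STAT5A gave 0.04 and −0.15 (edgeR adjusted p = 0.656 and 0.135), and STAT5B gave 0.10 and −0.26 (0.314 and 0.0248). SOCS3, chosen in the same way as a paralog of CISH and SOCS2, was 1.02 higher with shDDX41 #1 (adjusted p = 9.5e-04) and gave −0.17 with shDDX41 #2 (adjusted p = 0.606). Other SOCS genes of the list went different ways. With shDDX41 #1, SOCS5 (−0.28, edgeR adjusted p = 0.0138) and SOCS6 (−0.32, 0.0174) fell and SOCS7 rose (0.27, 0.0434). SOCS6 also fell with shDDX41 #2 (−0.50, edgeR adjusted p = 0.00274), and SOCS1 and SOCS4 were not called against sh-Control.

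Windows before the start were found for 21 of these 27 genes, and BCL6 alone held the palindrome, in 1 of its windows, from 28 to 20 bases before the start. The 60 bases before that start (RefSeq, GRCh38.p14, chr3:187745469-187745528, minus strand) are shown beside those of CISH because the genes share the motif, in capitals, and differ in how often they hold it.
BCL6: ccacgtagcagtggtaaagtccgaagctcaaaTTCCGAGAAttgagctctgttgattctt

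Of the PI3K and AKT chain, 23 of 23 genes were tested, with 5 higher and 5 lower with shDDX41 #1 (median −0.07) and 6 higher and 2 lower with shDDX41 #2 (median 0.06), beside 47.8% and 25.0% of all genes called. FOXO3, a transcription factor that AKT keeps out of the nucleus, and AKT1 fell by 0.76 and 0.55 with shDDX41 #1 (edgeR adjusted p = 1.3e-05 and 1.5e-05). With shDDX41 #2, RHEB, the GTPase that activates mTOR, fell by 0.47 (adjusted p = 1.0e-04).

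The partners and antagonists of MYC had 13 of 14 genes tested. With shDDX41 #1, 6 rose and 2 fell (median 0.17), and with shDDX41 #2, 1 rose and 1 fell (median −0.02), beside 47.8% and 25.0% of all genes called. MYCL, a MYC paralog, rose with both hairpins, by 1.36 (edgeR adjusted p = 1.5e-07) and 0.71 (adjusted p = 3.3e-04). MXD4, which competes with MYC for its partner MAX, rose by 0.69 with shDDX41 #1 (adjusted p = 7.4e-05), and MXI1, of the same family, fell by 0.34 with shDDX41 #2 (adjusted p = 0.00196).

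Of 30 MYC target genes, 29 were tested. With shDDX41 #1, where MYC rose, 4 of them rose and 12 fell (median −0.14), where 23.7% of all genes rose and 24.1% fell. With shDDX41 #2, where MYC fell, 0 rose and 16 fell (edgeR quasi-likelihood test, median −0.22), where 11.6% of all genes rose and 13.4% fell. DESeq2 called 0 higher and 17 lower, limma voom 0 and 16, and 0 were higher at an unadjusted p under 0.05 by edgeR. LDHA, the lactate dehydrogenase gene, fell by 1.69 and 0.55 (edgeR adjusted p = 3.0e-10 and 3.5e-05). DKC1, a pseudouridine synthase gene, fell by 1.02 with shDDX41 #1 (adjusted p = 2.4e-08), and the nucleolar gene NOP56 fell by 0.38 with shDDX41 #2 (adjusted p = 3.2e-04). The 2 comparisons share the sh-Control libraries, and the targets' count with shDDX41 #2 was 10 without shDDX41 #2 A and 9 without shDDX41 #2 D. Between the hairpins, 12 targets were higher and 6 lower with shDDX41 #1 (median 0.08), beside 24.6% and 24.2% of all genes. The part of MYC in the values of these targets was not tested.

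**Figure D3:**
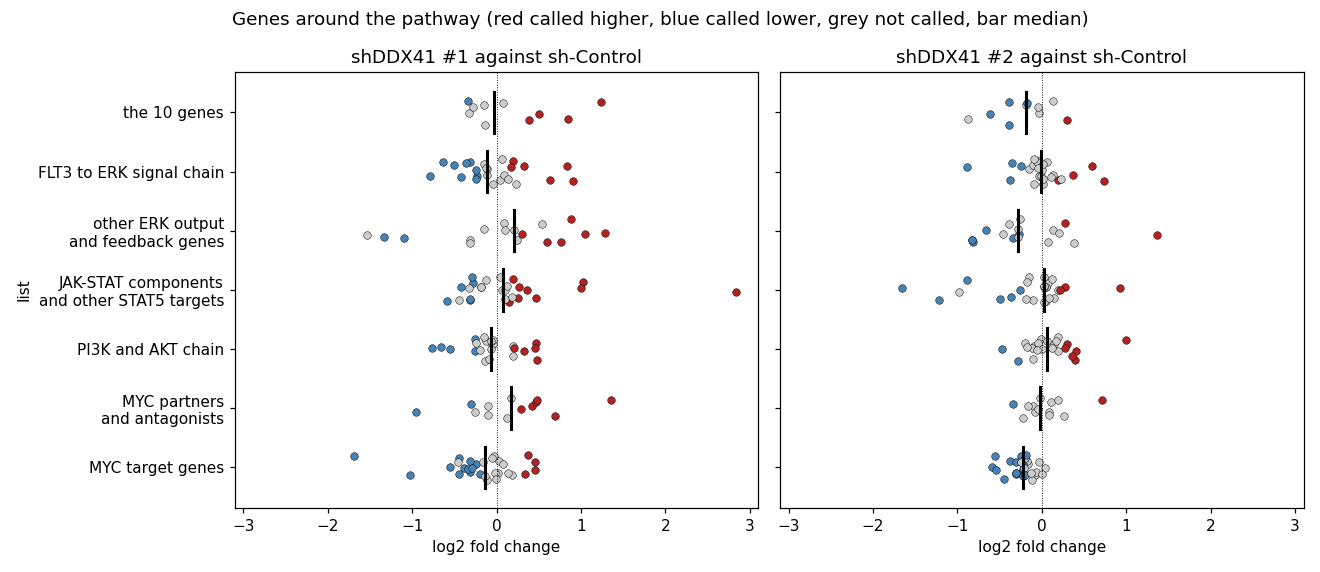
Log2 fold change (horizontal axes) of each tested gene in the list of 10 and in the 6 pathway lists, with shDDX41 #1 (left) and shDDX41 #2 (right) against sh-Control, red where called higher, blue where called lower, grey where not called, and a bar at the list's median. The MYC target genes hold 12 blue and 4 red points on the left and 16 blue and 0 red points on the right.

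For each of the 10, the gene with the most similar log2 CPM over the 9 libraries was found among the tested genes with a mean of at least 5 CPM. The libraries fall into 3 groups, so these correlations largely compare group levels and are given without a p. MYC was most like RHOT1, a mitochondrial GTPase gene (r = 0.995), which measured 39.1, 40.7 and 38.9 CPM in sh-Control, 46.7, 47.5 and 44.9 with shDDX41 #1, and 31, 32 and 32.9 with shDDX41 #2. CISH was most like TIFAB (r = 0.992), at 9.33, 9.86 and 8.11 CPM, then 25.4, 22.4 and 22.1, then 5.78, 6.5 and 5.94. Since the genes were picked for this likeness, their group order repeats that of MYC and CISH by selection. The others were TMEM63B for SOCS2 (0.99), PTPN7 for SPRY2 (0.984), CCDC97 for PIM2 (0.984), WDFY4 for SPRED2 (0.98), TMBIM1 for PIM1 (0.971), MLLT3 for SPRY4 (0.956), ITPR2 for DUSP6 (0.946) and LOC493754 for SPRED1 (0.939). No gene of the 10 was the nearest gene of another.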

How the data were processed

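MOLM13 RNA was sequenced in 9 libraries, 3 per hairpin. The authors deposited raw counts per gene, and the submitters' processing notes name FastQC 0.11.7, HISAT2 2.0.5, featureCounts 1.5.2 and the builds hg38 and mm10. The roles of the builds, the gene annotation and the strand setting of the counting are not given in the sources used here, and the labels and the methods name different library kits.

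From these counts, edgeR 4.0.16 (R 4.3.3) was run on all 9 libraries in 1 fit, with filterByExpr (minimum count 10), TMM factors, the quasi-likelihood test, 3 contrasts and Benjamini-Hochberg adjustment over 12712 genes, two-sided, with a threshold of 0.05. The common biological coefficient of variation was 0.0768. Replicates differed by more than counting noise, with a chi-square per degree of freedom of 2.45 to 19.2 over 9 pairs. The spread was uneven between groups that share 1 fit. Pairs with shDDX41 #1 D gave 17.6 and 19.2, beside 2.91 for shDDX41 #1 A with B. The sh-Control pairs gave 8 to 10.1 and the shDDX41 #2 pairs 2.45 to 3.25. The steps were tested on simulated data. Alternatives were DESeq2 1.42.0, limma voom 3.58.1, other scalings and filters, a replicate block, the compared libraries alone, and each library left out.

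The members and gene lists were chosen with earlier results of these data known. Named genes were all members, FLT3, PIM3 and DDX41, the 2 genes of smallest adjusted p per pathway list and hairpin, the gene most like each member (Pearson r of log2 CPM with prior count 2, mean of at least 5 CPM), and overlapping genes; other genes were chosen after their values were seen. A gene that this rule names is not reported here. Motifs were searched in the 250 bases before RefSeq starts (GRCh38.p14), and exon lengths came from GENCODE v29.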

Additional observations from a re-analysis of the deposited data

Results flagged for a closer look

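For 6 of the 10 genes the effects of the hairpins differed by the edgeR test of the hairpin contrast. Of all genes, 48.8% were called in this contrast, so the share among the 10 was near that background. The log2 difference, shDDX41 #1 minus shDDX41 #2, was −0.47 for DUSP6, 1.73 for SPRY4, 0.24 for PIM1, 1.62 for CISH, 0.26 for SOCS2 and 1.11 for MYC. CISH and MYC were called in opposite directions against the shared sh-Control libraries, higher with shDDX41 #1 and lower with shDDX41 #2. The knockdown of DDX41 was deeper with shDDX41 #1, at 11.7 ± 1.56 CPM beside 40.4 ± 1.85 CPM with shDDX41 #2 (SD, n = 3), and its part in these differences was not tested.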

How the results depend on the processing

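The calls of CISH and MYC in all 3 comparisons, of PIM2 with shDDX41 #1, of PIM1 with shDDX41 #2, and of DUSP6, SPRY4 and SOCS2 between the hairpins were kept in every alternative that tested the gene. The depth limits SPRY4, which at 5 to 40 counts could not be tested when at least 10 counts were required in every library. Leaving out 1 library at a time gave 3 to 5 called genes of the 10 with shDDX41 #1 (3 without shDDX41 #1 B), 3 to 5 with shDDX41 #2 (3 without sh-Control B or D or any shDDX41 #2 library) and 5 to 7 between the hairpins. The calls of all genes with shDDX41 #2 ranged from 2054, without shDDX41 #2 B, to 4248, beside 3174. Some uncalled values changed sign. SPRED1 with shDDX41 #2 was 0.00 with upper quartile scaling and ran from −0.14 to 0.08 without single libraries, SPRED2 with shDDX41 #2 from −0.14 to 0.02, PIM2 between the hairpins from −0.01 to 0.16, and SPRY2 between them from −0.05 to 0.13. The cause was not tested. List counts with shDDX41 #2 fell from 8 to 5 for the FLT3 to ERK chain without shDDX41 #2 A or D, for the other ERK genes without any shDDX41 #2 library and for the PI3K chain without shDDX41 #2 D, and rose from 2 to 4 for the MYC partners without shDDX41 #1 D. Upper quartile scaling moved the median of all genes with shDDX41 #1 from 0.01 to 0.09.

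The letters A, B and D were not treated as pairs in the main fit. Deviations of same-lettered libraries correlated at −0.06 to 0.24 over 9 pairs, beside −0.18 to 0.07 over 18 pairs of unlike letters. Between sh-Control and shDDX41 #1 the same-lettered values were 0.07 (A), 0.16 (B) and 0.24 (D), so variation shared by letter may be present in that comparison. With the letter as a replicate block, 6, 5 and 7 of the 10 genes were called in place of 5, 5 and 6, the addition being SPRED2, at −0.29 with shDDX41 #1 (edgeR adjusted p = 0.0123) and −0.26 between the hairpins (0.0228). In the main fit 47.8%, 25.0% and 48.8% of all genes were called. The shares under the block are not given here, so a general rise in calls cannot be told apart. PIM3 was also called with shDDX41 #1 under the block (0.18, 0.0404).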
